A study of Mus musculus with 32 samples.

Results

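The genes described here make or modify the chondroitin sulfate matrix of the brain and the perineuronal nets (PNNs) built from it. They are a list of 38 genes out of the 27998 in the count matrix, chosen by symbol for their known function: lectican core proteins, link proteins, tenascins, other chondroitin sulfate proteoglycan cores, hyaluronan synthases and receptor, lectican proteases, and the enzymes that build and sulfate the sugar chains. All 38 symbols were found in the matrix. The data are single-cell RNA sequencing of the median eminence (ME), the strip at the base of the hypothalamus where blood-borne signals reach the brain. The ME was taken from 5 male C57B/L6 mice fasted overnight (16 h) and from 5 male mice of that strain given normal chow for 1 h after the same fast, all 40 to 47 days old. Tissue was pooled within each condition, dissociated with papain, sorted for live cells and divided over 2 droplet libraries per condition (10x Genomics 3′ chemistry). The labels name no mutation or transgene. No label ties a cell to a library or a condition, so the 5982 cells form a single sample in which fasted and refed animals are mixed, and the conditions were not compared.

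Each value is a count of unique molecular identifiers (UMIs), so each captured transcript counts once. A level is the UMIs of a gene in a cell group per 1e+06 UMIs counted there (CPM). The matrix held 29288898 UMIs, with a median of 3837 UMIs per cell and a range from 1533 to 25054. The only trace of the libraries is a number from 1 to 4 at the end of each cell barcode. These numbers held 1642, 1493, 1359 and 1488 cells, and 21 barcode sequences occurred under more than 1 number (42 cells). Values by barcode number are printed side by side to show their spread, but they are not replicates of a condition. Intervals are at the 95% level, exact Poisson for CPM and exact Clopper-Pearson for shares, and cover counting error alone. No test between animals was possible.

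Lecticans are large core proteins that carry chondroitin sulfate chains and bind hyaluronan, a long unsulfated sugar, at one end. Link proteins lock that bond, and tenascin-R, a trimer, crosslinks lecticans at the other end, which gives the lattice of a PNN around a neuron. The position of the sulfate groups sets which growth factors, receptors and guidance molecules the chains bind, and proteases of the ADAMTS family cut the lectican cores. In the oligodendrocyte lineage, progenitors (OPCs) pass through a stage of differentiating cells (diffOPCs) to mature oligodendrocytes (MOLs), which wrap axons in myelin.

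Cells were grouped without the listed genes, so that their level could not set the groups. The 24 clusters were named from marker lists, and 21 took a name and formed 13 cell types. The oligodendrocyte lineage held 1102 cells, or 18.4% of all cells and 23.9% of all UMIs: 304 OPC-like, 132 diffOPC-like and 666 MOL-like cells. Their defining markers were high in them, which follows in part from naming the clusters by the same lists. Pdgfra stood at 921 CPM in OPC-like cells, Bmp4 at 1301 CPM in diffOPC-like cells and Opalin at 1677 CPM in MOL-like cells, and all 9 markers of each of these lists were highest in their own type. A cluster name means that the cells resemble the type. The largest other types were 1427 tanycyte-like, 1424 astrocyte-like and 506 neuron-like cells. Of the 9 markers on a list, 8 were highest in their own type for tanycyte-like, 7 for neuron-like and 8 for pars tuberalis-like cells. One tanycyte-like cluster of 361 cells, led by Gfap, scored 0.451 on the tanycyte list and 0.280 on the ependymocyte list. Most of its cells were unnamed in 6 of the 10 alternative clusterings and tanycyte-like in the other 4. The 90 pars tuberalis-like cells, led by Cga, scored 0.968 on their own list but also 0.458 on the neuron list, with the neuropeptide gene Sst at 690 CPM (1885 CPM in neuron-like cells), and 32 to 80 cells took the name in the alternative clusterings that gave it.

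The matrix genes were expressed most in the early stages of the oligodendrocyte lineage. Their 47931 UMIs were 0.164% of all UMIs, but their summed level was 9325 CPM in OPC-like cells and 4260 CPM in diffOPC-like cells. Astrocyte-like cells followed with 3060 CPM, MOL-like cells with 1156 CPM and tanycyte-like cells with 1007 CPM. The other 8 types lay between 296 CPM in macrophage-like and 700 CPM in VLMC-like cells, which resemble vascular and leptomeningeal cells. OPC-like cells owed most of their sum to the 2 membrane proteoglycans Cspg5 and Ptprz1, and astrocyte-like cells owed most of theirs to brevican (Bcan) and Ptprz1.

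Of the 38 genes, 31 had at least 50 UMIs and are described by cell type. The other 7 were too sparse for that: aggrecan (Acan) had 45 UMIs, tenascin-C (Tnc) 36, the hyaluronan synthases Has2, Has1 and Has3 had 20, 12 and 7, the chain polymerase Chsy3 had 6 and the sulfotransferase Chst13 had 5. Of the 36 UMIs of Tnc, 27 were in astrocyte-like cells, and of the 20 of Has2, 9 were in diffOPC-like cells. Of the 31, the highest type was OPC-like for 11 (12.2% of all 13953 genes with at least 50 UMIs), diffOPC-like for 4 (8.92% of all) and MOL-like for 2 (5.32% of all). That is 17 genes in the lineage, where 26.5% of all genes had their highest level. VLMC-like cells were highest for 3 genes (5.1% of all), and astrocyte-like, microglia-like, mural-like and endothelial-like cells for 2 each (6.03%, 6.29%, 6.7% and 9.45% of all). Tanycyte-like, neuron-like and ependymocyte-like cells were highest for 1 each (3.5%, 12.2% and 11.8% of all). For 10 of the 31 genes, more than 50% of the UMIs came from the lineage, against 5.58% of all genes. The median share of UMIs from the lineage was 27.1%, and 19.5% over all genes with 50 UMIs. The list was chosen with earlier results of these data known. Tnr, Vcan, Adamts4, Chst2 and Chst5, which are among the 10, are genes that the paper ascribes solely or mainly to this lineage. These counts are thus not independent of the choice of genes. The highest type was at least 4 times the next for 4 genes (Hapln2, Cspg5, Ust and Xylt1), a property that 4.93% of all genes had.

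**Figure D1:**
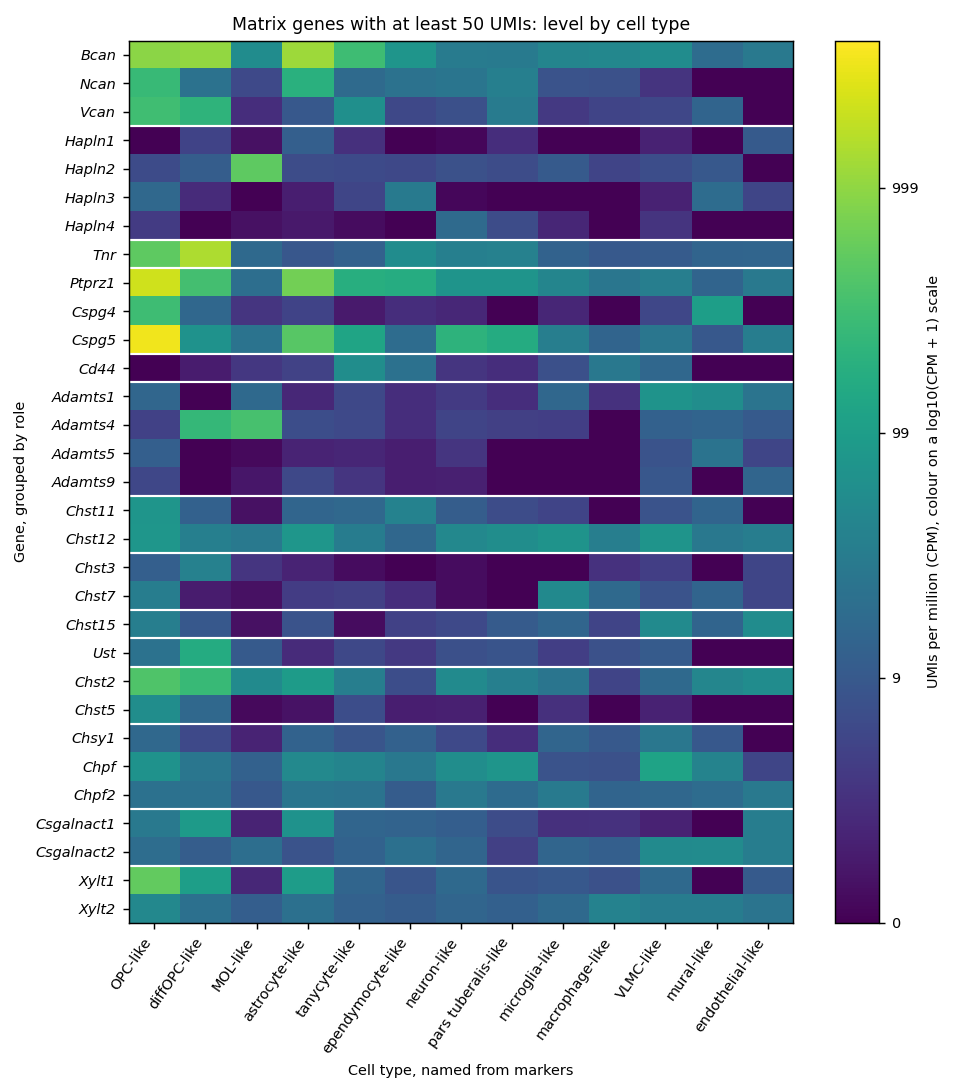
Level of the 31 genes with at least 50 UMIs (rows, grouped by role) in the 13 cell types (columns), as CPM on a log10(CPM + 1) colour scale. The brightest cells are Cspg5 (3309 CPM) and Ptprz1 (2170 CPM) in OPC-like cells. Along its own row, Hapln2 is brightest in the MOL-like column (513 CPM) and Hapln4, though dim, in the neuron-like column (16.5 CPM).

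Among the lecticans, brevican was shared by glia, neurocan was split between progenitors and astrocytes, and versican belonged to progenitors and a subset of tanycytes. Bcan (ENSMUSG00000004892, chromosome 3, 87987531 to 88000230) stood at 1170 CPM in astrocyte-like, 1051 CPM in diffOPC-like and 935 CPM in OPC-like cells. The interval of the first (1137 to 1204 CPM) did not overlap that of the last (882 to 990 CPM). Astrocyte-like cells under barcode numbers 1 to 4 had 1213, 1253, 1048 and 1129 CPM. DiffOPC-like cells had 986, 982, 1151 and 1086 CPM, so these 2 types overlapped between barcode numbers. Tanycyte-like cells held 303 CPM, and MOL-like cells 54.8 CPM. A UMI of Bcan was found in 97.0% of diffOPC-like cells and in 9.9% of microglia-like cells (median depth 8562.5 and 3093 UMIs), a type that should lack it.

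Neurocan (Ncan, ENSMUSG00000002341, chromosome 8, 70093085 to 70120873) was at 263 CPM in OPC-like cells (235 to 293) and at 195 CPM in astrocyte-like cells (181 to 209). The OPC-like values under barcode numbers 1 to 4 were 282, 258, 254 and 246 CPM, all above the astrocyte-like values of 184, 207, 191 and 196 CPM. In diffOPC-like cells it was at 21.8 CPM (14.1 to 32.1). Neuron-like cells had 24.3 CPM, so Ncan formed 37.8% of their lectican UMIs (33.2% to 42.6%), against 14.2% in astrocyte-like and 1.67% in diffOPC-like cells. Versican (Vcan, ENSMUSG00000021614, chromosome 13, 89655312 to 89742509) was at 310 CPM in OPC-like cells (279 to 342) and at 222 CPM in diffOPC-like cells (196 to 251). By barcode number the OPC-like cells had 341, 360, 219 and 280 CPM, and the diffOPC-like cells 246, 229, 165 and 250 CPM, so Vcan was lower in diffOPC-like cells under each number, though the ranges over the numbers overlapped. MOL-like cells had 9 UMIs of Vcan (1.95 CPM) and astrocyte-like cells 8.9 CPM.

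Tanycytes, the cells that line the floor of the third ventricle and reach down to the ME capillaries, were not uniform for Vcan. The 643 cells of one cluster, with Rax at 842 CPM and little Gfap or Scn7a (7.5 and 22.4 CPM), had 105 CPM (92.2 to 118). The 423 cells of a cluster marked by Col25a1 and Scn7a had 42.1 CPM (33.8 to 51.9), and the Gfap-led cluster had 20.7 CPM (14.3 to 28.9). The first stood between 91.4 and 111 CPM over the 4 barcode numbers and the last between 9.7 and 27.1 CPM, so they did not overlap, although the Gfap-led cluster lost its tanycyte name in most alternative clusterings. The Col25a1 and Scn7a cluster lay between 36.7 and 56.8 CPM, also below the first. CD44, a membrane receptor for hyaluronan, had another order within tanycytes. Cd44 (ENSMUSG00000005087, chromosome 2, 102811141 to 102901665) was at 87.5 CPM (75.3 to 101) in the Col25a1 and Scn7a cluster and at 39.9 and 42.0 CPM in the other clusters. It was the only listed gene with its highest level in tanycyte-like cells (56.7 CPM), with macrophage-like cells next at 27.1 CPM, and OPC-like cells had 0 UMIs, which allows up to 2.43 CPM.

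Each lectican gene lies beside a link protein gene, with no other protein-coding gene between them. The neighbours had their highest levels in different cell types for Bcan and Hapln2, Ncan and Hapln4, and Vcan and Hapln1, while Acan was too sparse to place (10.5 CPM in OPC-like and 10.4 CPM in diffOPC-like cells). How often other neighbouring genes differ in this way was not counted, so it cannot be called particular to these pairs. Bcan and Hapln2 are 21519 bases apart on chromosome 3. Bcan was highest in astrocyte-like cells, whereas Hapln2 (ENSMUSG00000004894, 88021750 to 88027583) stood at 513 CPM (493 to 534) in MOL-like cells and at 10.4 CPM (12 UMIs) in the next type, near the 9.6 CPM of microglia-like cells. Hapln2 encodes BRAL1, the link protein known from nodes of Ranvier, and 94.6% of its UMIs came from the lineage. MOL-like cells under barcode numbers 1 to 4 had 520, 548, 505 and 491 CPM, and diffOPC-like cells had between 0 and 23.1 CPM. Ncan was highest in OPC-like cells, and its neighbour Hapln4, 2222 bases away on chromosome 8, in neuron-like cells with 16.5 CPM (13.6 to 19.9). Hapln4 encodes BRAL2, a link protein of nets around neurons. It was at 17.1, 14.7 and 14.9 CPM in the 3 neuron-like clusters, whose intervals overlapped, and at 1.5 CPM in microglia-like cells.

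Vcan was highest in OPC-like cells, which had 0 UMIs (a limit of 2.43 CPM) of its neighbour Hapln1, 43659 bases away on chromosome 13. Hapln1 was sparse, with 74 UMIs in all cells and 11.2 CPM (8.1 to 15) in astrocyte-like cells. Endothelial-like cells were next at 9.3 CPM, from 2 UMIs. Acan and Hapln3 end 2 bases apart on opposite strands of chromosome 7. Hapln3 was at 28.0 CPM (18.6 to 40.5) in ependymocyte-like cells, 17.8 CPM in mural-like and 15.4 CPM in OPC-like cells, with intervals that overlapped. Of the 45 UMIs of Acan, the main lectican of nets around many cortical neurons, 13 were in OPC-like and 12 in diffOPC-like cells. A further 13 came from 65 neuron-like cells led by Agrp and Npy (11.4 CPM, 6.1 to 19.5), and 3 from the 441 other neuron-like cells. Acan was under the minimum of 50 UMIs, and this split was picked out after its values had been seen. Pearson's r between neighbours was taken over the 13 types on log2(CPM + 10). It was 0.13 for Acan and Hapln3, −0.085 for Bcan and Hapln2, 0.23 for Ncan and Hapln4 and −0.033 for Vcan and Hapln1. These are descriptions over types that share the same libraries, with no p.

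**Figure D2:**
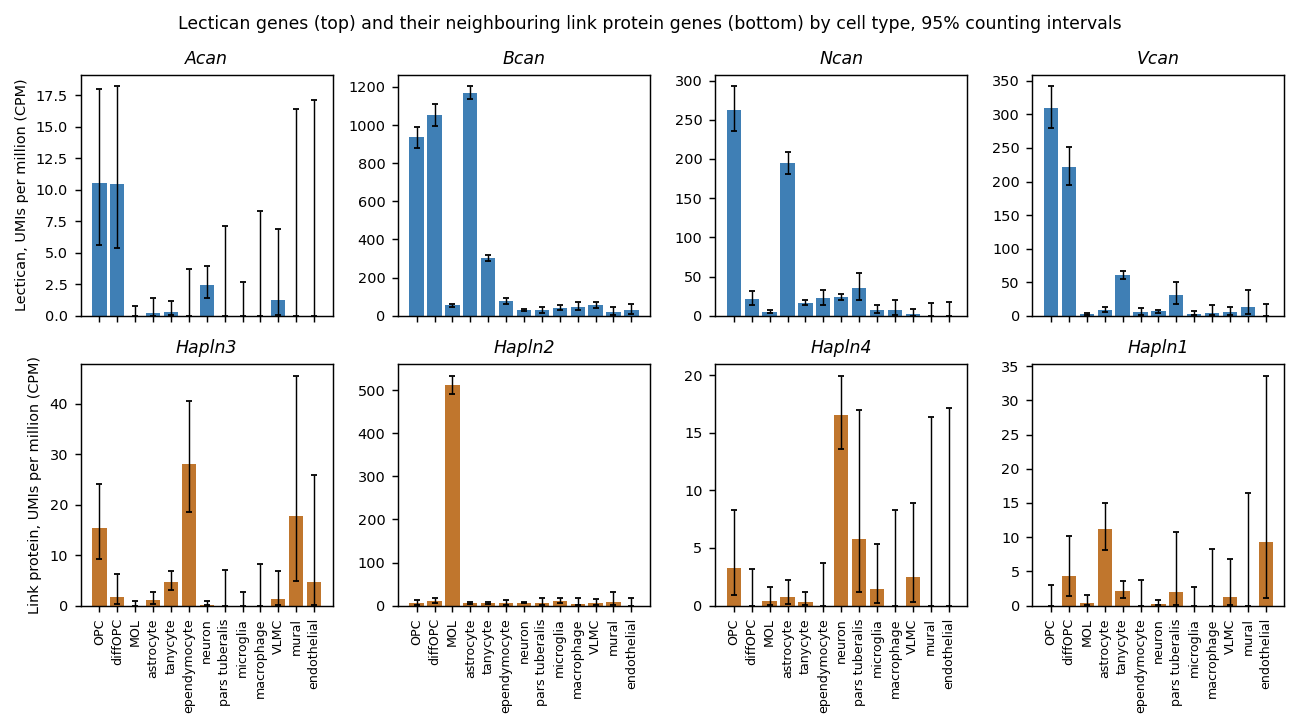
Level in CPM (vertical axes, from 0) of the 4 lectican genes (top) and of the link protein gene next to each on the chromosome (bottom) in the 13 cell types, with 95% counting intervals. The tallest bars of these pairs stand in different types: Bcan peaks in astrocyte-like cells (1170 CPM) and Hapln2 in MOL-like cells (513 CPM), Ncan in OPC-like cells (263 CPM) and Hapln4 in neuron-like cells (16.5 CPM).

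Along the lineage, the matrix genes fell into groups that differed by stage. Levels were compared as log2(CPM + 10) of summed UMIs for genes with at least 50 UMIs over both stages, and a difference of 1 log2 unit was called. Between OPC-like and diffOPC-like cells, 20 listed genes could be compared. Of these, 5 were higher in diffOPC-like cells (Tnr, Adamts4, Ust, Chst3 and Csgalnact1), 9 were lower and 6 were not called, while 6.44% of all 6867 genes were higher and 12.2% lower. Between diffOPC-like and MOL-like cells, 18 could be compared. In MOL-like cells 2 were higher (Hapln2 and Adamts1) and 10 lower, against 8.34% and 14.4% of all 8115 genes. All 26 differences called in these 2 comparisons had the same sign under each of the 4 barcode numbers, and 20 of them passed 1 log2 unit under each.

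These calls are relative to the total UMIs of each stage. With edgeR TMM scaling, the median of all genes moved from −0.15 to 0.08 log2 units between OPC-like and diffOPC-like cells, and from −0.30 to 0.10 between diffOPC-like and MOL-like cells. Higher genes then made up 46.3% in place of 34.5% of all calls in the first comparison, and 62.8% in place of 36.7% in the second. The listed genes gave 5 higher and 7 lower in the first, and 3 higher and 9 lower in the second. Chst15 and Chpf were not called in the first, and in the second Cspg5 was not called and Adamts4 was called higher. No called difference of a listed gene changed sign.

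Tenascin-R marked the intermediate stage. Tnr (ENSMUSG00000015829, chromosome 1, 159523769 to 159931729) stood at 510 CPM (471 to 552) in OPC-like cells, 1446 CPM (1377 to 1517) in diffOPC-like cells and 16 CPM (12.6 to 20.1) in MOL-like cells. The OPC-like values under barcode numbers 1 to 4 were 552, 529, 503 and 427 CPM, and the diffOPC-like values 1458, 1542, 1480 and 1302 CPM. In MOL-like cells they were 22.5, 5.6, 8.9 and 24.1 CPM, so no stage overlapped another. Of the 74 UMIs in MOL-like cells, 46 were in 8 deep cells (median 17050.5 UMIs per cell) that joined the diffOPC-like clusters when the lineage was clustered alone, and the remaining 658 cells had 28 UMIs (6.3 CPM). The log2 differences were 1.48 and −5.80. Each of the 132 diffOPC-like cells had a UMI of Tnr, and 78.8% still had one when each cell was thinned to 1000 UMIs, against 38.2% of OPC-like cells. Outside the lineage the highest level was 56.1 CPM (42.3 to 72.8) in ependymocyte-like cells, and microglia-like cells had 12.5 CPM.

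Ust, the sulfotransferase that adds a sulfate to position 2 of the uronic acid in the chain, followed the same course. It was at 21.8 CPM (14.4 to 31.8) in OPC-like cells, 163 CPM (140 to 188) in diffOPC-like cells and 9.3 CPM (6.7 to 12.6) in MOL-like cells, with log2 differences of 2.44 and −3.16. The diffOPC-like values were 129, 191, 178 and 166 CPM under the 4 barcode numbers, and no OPC-like value exceeded 25.8 CPM. Chst3, a chondroitin 6-O sulfotransferase, had fewer counts. Its level was 11.3 CPM in OPC-like cells, 37.4 CPM (27.1 to 50.4) in diffOPC-like cells and 2.6 CPM in MOL-like cells. Under barcode number 3 the OPC-like and diffOPC-like values were 17.2 and 19.7 CPM, and over all cells the log2 difference of 1.15 between these stages was 0.99, short of the threshold, when called doublets were left out. Csgalnact1, which adds the first N-acetylgalactosamine of the chain, was at 27.5, 90.5 and 1.3 CPM in the 3 stages, and at 68.0 CPM in astrocyte-like cells. Together, 4 of the 15 listed genes compared in both steps were higher in diffOPC-like cells than in either other stage, which held for 3.77% of all 6442 genes.

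Bases before the start sites of 3 of these 4 genes are shown, since they are the listed genes that were highest in diffOPC-like cells on both sides, together with those of the neighbours Bcan and Hapln2, which differed in source. They are the 250 bases before the start, from RefSeq on GRCm38.p6, read 5′ to 3′ on the strand of the gene. The RefSeq start matches the gene coordinates given here, which are from GENCODE, for Tnr, Ust and Chst3. For Bcan it lies 126 bases upstream of the GENCODE start, and for Hapln2 72 bases inside the gene, so the last 72 bases shown for Hapln2 are within the gene as annotated by GENCODE. Capitals mark the letters ACAAAG or ACAATG, which proteins of the SOX family bind, and CAGCTG or CATCTG, forms of the E-box, on either strand.
Tnr, chr1:159523519-159523768, plus strand: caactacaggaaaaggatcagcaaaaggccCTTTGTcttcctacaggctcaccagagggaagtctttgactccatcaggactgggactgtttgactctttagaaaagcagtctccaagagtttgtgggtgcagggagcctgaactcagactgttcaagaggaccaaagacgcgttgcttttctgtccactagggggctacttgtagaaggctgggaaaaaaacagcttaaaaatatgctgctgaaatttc
Ust, chr10:8518826-8519075, minus strand: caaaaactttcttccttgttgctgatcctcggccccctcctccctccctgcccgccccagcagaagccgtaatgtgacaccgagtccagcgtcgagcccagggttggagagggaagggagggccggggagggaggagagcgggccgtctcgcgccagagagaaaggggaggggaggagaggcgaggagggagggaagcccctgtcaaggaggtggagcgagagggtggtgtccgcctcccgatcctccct
Chst3, chr10:60219261-60219510, minus strand: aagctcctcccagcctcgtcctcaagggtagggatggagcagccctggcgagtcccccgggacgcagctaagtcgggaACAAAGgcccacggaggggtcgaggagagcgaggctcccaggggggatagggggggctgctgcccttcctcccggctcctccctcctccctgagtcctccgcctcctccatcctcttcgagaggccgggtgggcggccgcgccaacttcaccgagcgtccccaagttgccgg
Bcan, chr3:88000357-88000606, minus strand: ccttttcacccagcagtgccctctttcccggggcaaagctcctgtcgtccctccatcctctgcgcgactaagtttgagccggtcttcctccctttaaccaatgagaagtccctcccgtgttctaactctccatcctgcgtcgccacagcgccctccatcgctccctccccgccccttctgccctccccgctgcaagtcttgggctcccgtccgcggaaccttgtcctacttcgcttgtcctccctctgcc
Hapln2, chr3:88027512-88027761, minus strand: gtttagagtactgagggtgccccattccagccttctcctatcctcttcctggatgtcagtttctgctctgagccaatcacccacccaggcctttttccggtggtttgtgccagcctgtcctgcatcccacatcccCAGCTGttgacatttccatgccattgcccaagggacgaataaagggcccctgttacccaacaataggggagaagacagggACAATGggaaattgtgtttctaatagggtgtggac
Tnr and Chst3 each held ACAAAG, once, at 220 and 172 bases before the start (in Tnr on the other strand, so it reads CTTTGT), and Ust held none of the letters. Hapln2 held CAGCTG, and ACAATG at 35 bases before the RefSeq start, within those 72 bases, and Bcan held none. No marked stretches overlapped. A sequence was at hand for 29 of the 38 genes, of which 3 held ACAAAG (10.3%), 2 held ACAATG (6.90%), 7 held CAGCTG (24.1%) and 3 held CATCTG (10.3%). Over all 32851 promoters of this length the shares were 16.5%, 10.7%, 13% and 14.4%. These background shares are per promoter, whereas a listed gene counted once if any of its promoters held the letters. No sequence was used for Csgalnact1, Adamts4, Adamts5, Cspg5, Xylt1, Hapln4, Has2, Has3 and Chsy3.

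More of the genes were highest in progenitors. Cspg5 (ENSMUSG00000032482, chromosome 9, 110243783 to 110262576), which encodes neuroglycan C, was at 3309 CPM (3208 to 3412) in OPC-like cells and at 67.0 CPM (52.9 to 83.8) in diffOPC-like cells, a log2 difference of −5.43. By barcode number these were 3352, 3451, 3094 and 3258 CPM, and 65.8, 63.7, 78.9 and 57.8 CPM. With each cell thinned to 1000 UMIs, so that deep cells did not weigh more, diffOPC-like cells had 159 CPM (98.5 to 243), still far below the 3480 CPM of OPC-like cells. Cspg5 was also present in astrocyte-like cells (465 CPM), neuron-like cells (212 CPM) and an unnamed cluster of 207 cells with some tanycyte markers (386 CPM). The MOL-like level (22.5 CPM) was below the 33.8 CPM (46 UMIs) of microglia-like cells. The step from diffOPC-like to MOL-like cells (log2 −1.24) was called, but was −0.74, −0.67 and −0.83 without barcode number 2, 3 or 4, and −0.84 at the lower cluster resolution.

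Ptprz1, a receptor-type phosphatase whose secreted form is the proteoglycan phosphacan, was at 2170 CPM (2089 to 2254) in OPC-like cells, 338 CPM (305 to 373) in diffOPC-like cells and 19.1 CPM in MOL-like cells. By barcode number the first were 2145, 2196, 2381 and 1996 CPM and the second 437, 310, 266 and 312 CPM. Astrocyte-like cells had 689 CPM, tanycyte-like cells 179 CPM and ependymocyte-like cells 168 CPM. Cspg4, which encodes NG2, was at 303 CPM (273 to 336) in OPC-like and 14.8 CPM (8.6 to 23.7) in diffOPC-like cells. Mural-like cells, which also carry NG2 in many tissues, had 102 CPM (64.8 to 153) from 23 UMIs. The log2 differences from OPC-like to diffOPC-like cells were −2.65 for Ptprz1, −3.66 for Cspg4 and −3.10 for Ncan. Bcan and Vcan were not called at this step (0.17 and −0.46) and were lower in MOL-like cells by 4.03 and 4.28 log2 units. Of these 3 lecticans, Ncan alone passed the threshold at the diffOPC-like stage.

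**Figure D3:**
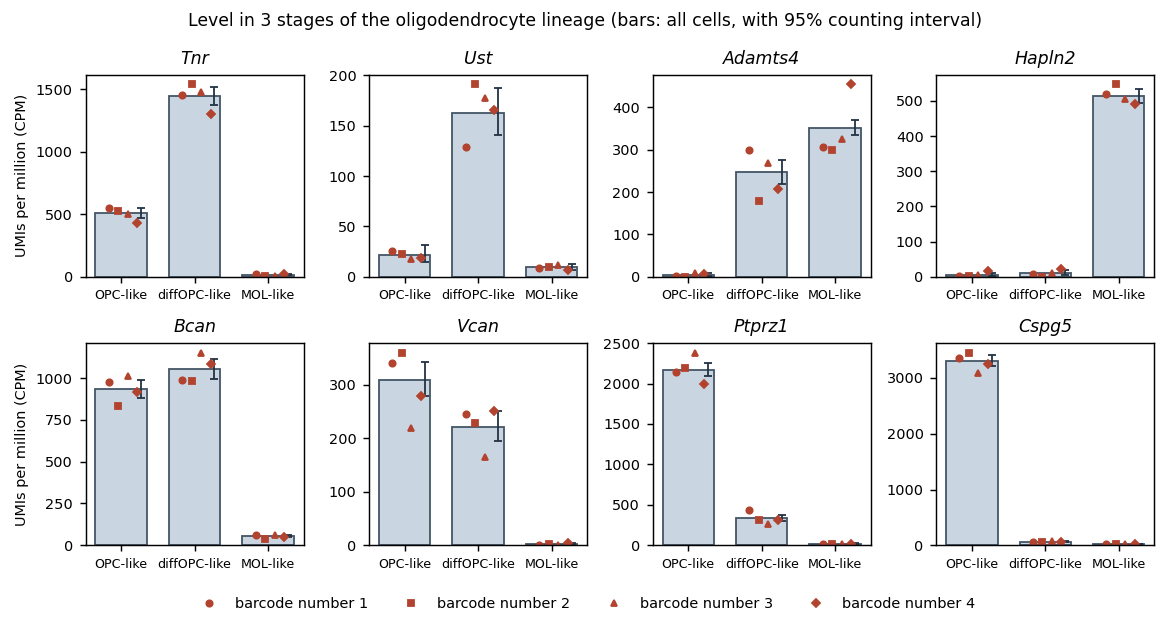
Level in CPM (vertical axes, from 0) of 8 genes in OPC-like, diffOPC-like and MOL-like cells. Bars are all cells of a stage with the 95% counting interval, and points are the cells of barcode numbers 1 to 4. Tnr and Ust peak in diffOPC-like cells, Cspg5 and Ptprz1 in OPC-like cells and Hapln2 in MOL-like cells, and the ranges of the Vcan points overlap between the first 2 stages.

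Among the lectican proteases, Adamts4 came almost wholly from the oligodendrocyte lineage. Adamts4 (ENSMUSG00000006403, chromosome 1, 171250421 to 171260637), an aggrecanase that also cuts brevican and versican, drew 94.1% of its UMIs from the lineage. It had 5 UMIs in OPC-like cells (4.0 CPM, 1.3 to 9.4), and was at 246 CPM (218 to 277) in diffOPC-like cells and 352 CPM (335 to 369) in MOL-like cells. By barcode number the diffOPC-like values were 300, 178, 270 and 208 CPM and the MOL-like values 307, 300, 325 and 455 CPM. The last step, 0.50 log2 units, was not called and its sign was not stable. It was −0.27 when the lineage cells were clustered alone or called doublets were left out, −0.28 without barcode number 1 and −0.19 without number 3, and 1.01, past the threshold, with TMM scaling.

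The diffOPC-like cells differed among themselves in Adamts4. Clustered alone, the lineage gave 2 diffOPC-like clusters of 42 and 97 cells, 139 in place of 132, since the 8 deep cells joined the larger cluster and 1 cell left for the OPC-like clusters. The values that follow are for the 42 and 89 cells that were diffOPC-like in both clusterings. Enpp6, a marker of newly formed oligodendrocytes, was at 464 CPM in the first group and 1279 CPM in the second. Adamts4 was at 50.6 CPM (27 to 86.6) in the first and 304 CPM (269 to 342) in the second. Bcan had the same order, with 440 and 1230 CPM, and Ust too, with 81.8 and 187 CPM. Ptprz1 had the reverse order, 635 and 249 CPM, and Tnr was high in both (1141 and 1536 CPM).

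Among the main clusters, Adamts4 was highest in an 84-cell MOL-like cluster with a median of 11110 UMIs per cell, at 652 CPM (603 to 704). This cluster held the 8 deep cells, which had Adamts4 at 1528 CPM (1328 to 1751), Bcan at 918 CPM (765 to 1094) and Hapln2 at 66.1 CPM (30.2 to 126). Without them, a choice made after their values had been seen, its other 76 cells had Adamts4 at 514 CPM (467 to 564) and Bcan at 24.3 CPM (15 to 37.1). The 8 cells held 125 of the 253 UMIs of Bcan in MOL-like cells. Scrublet called 0 of the 8 a doublet, and all 8 were also diffOPC-like when the called doublets were left out of the clustering.

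Hapln2 and Adamts4 parted within MOL-like cells. That deep cluster, which had Mal at 5621 CPM and Opalin at 2330 CPM, had Hapln2 at 23.0 CPM (14.6 to 34.5), or 16.2 CPM without the 8 deep cells. The largest cluster, of 498 cells with Ptgds at 32291 CPM, had Hapln2 at 506 CPM (481 to 533) and Adamts4 at 257 CPM (239 to 276). A further 84 cells that were led by Klk6 (1172 CPM) had Hapln2 at 1259 CPM (1177 to 1346) and Adamts4 at 319 CPM (278 to 364). Under each of the 4 barcode numbers Hapln2 kept this order, between 5.4 and 39.4 CPM in the first cluster, 469 and 540 CPM in the second and 1077 and 1618 CPM in the third. The sulfotransferase Chst2 was at 46.0, 27 and 171 CPM and Chst12 at 12, 23.9 and 62.9 CPM in the same order of clusters. Without the 8 deep cells Chst2 was at 27.8 CPM in the first cluster. The median depth was 11110, 5768 and 7307.5 UMIs per cell in the 3 clusters, and with each cell thinned to 1000 UMIs Adamts4 was still at 619, 241 and 333 CPM.

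**Figure D4:**
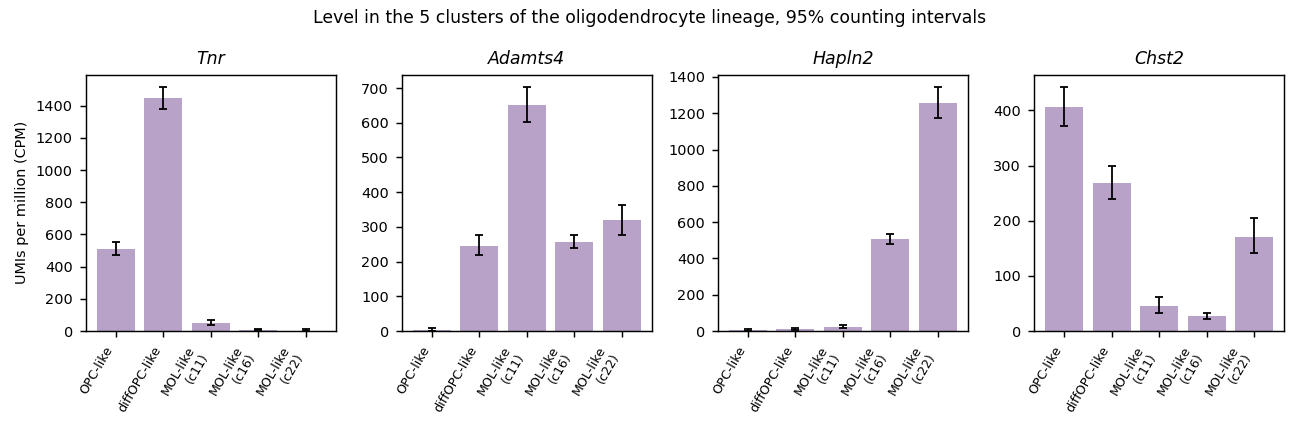
Level in CPM (vertical axes, from 0) of Tnr, Adamts4, Hapln2 and Chst2 in the 5 clusters of the lineage, with 95% counting intervals. From left to right the clusters are OPC-like, diffOPC-like, the deep MOL-like (c11), the largest MOL-like (c16) and the Klk6-led MOL-like (c22). Tnr is highest in diffOPC-like cells (1446 CPM), Adamts4 in c11 (652 CPM) and Hapln2 in c22 (1259 CPM).

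The other lectican proteases were sparse in the lineage. VLMC-like cells had the most Adamts1, 70.2 CPM (53.1 to 90.9), with 57.8 CPM (30.8 to 98.8) in mural-like cells. It was 1 of the 2 genes called higher in MOL-like than in diffOPC-like cells, at 16 CPM (12.6 to 20.1) against 0 UMIs. That is at least 6.14-fold higher against a limit of 3 counts (2.61 CPM). OPC-like cells had 14.6 CPM (18 UMIs), and the difference of MOL-like from OPC-like cells (0.08 log2 units) was not called. In a microglia-like cluster of 48 cells with Ccl4 at 1096 CPM, Adamts1 was at 61.9 CPM (30.9 to 111), from 11 UMIs, against 7.6 CPM (3.5 to 14.5) in the other 357 microglia-like cells. These 11 UMIs came from barcode numbers 1 and 2, which gave 41 of the 48 cells. Adamts5 had 61 UMIs in all, 17 of them in neuron-like and 14 in OPC-like cells, and its highest level, 22.2 CPM (7.2 to 51.9) in mural-like cells, rested on 5. Adamts9 had 68 UMIs, 20 in astrocyte-like and 16 in tanycyte-like cells, and 14.0 CPM (2.9 to 40.8) from 3 UMIs in endothelial-like cells.

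The mix of sulfation enzymes differed between cell types. Chst11, Chst12 and Chst13 sulfate position 4 of N-acetylgalactosamine, and Chst3 and Chst7 position 6. The 4-O enzymes made up 99% (97.3% to 99.7%) of the UMIs of both kinds in neuron-like cells, 95.2% (92.5% to 97.1%) in astrocyte-like, 92.0% (88.5% to 94.8%) in tanycyte-like and 90.1% (83.9% to 94.5%) in MOL-like cells. They made up 77.6% (71.8% to 82.7%) in OPC-like cells, 59.6% (51.9% to 67.1%) in microglia-like cells and 55.1% (44.7% to 65.2%) in diffOPC-like cells. The intervals of these 3 types did not overlap those of the 4 types named before them. VLMC-like cells lay between, at 88.3% (79.0% to 94.5%), and overlapped both OPC-like and MOL-like cells, so the types did not form separate groups. Ependymocyte-like and pars tuberalis-like cells were high, at 96.4% and 100%. Macrophage-like cells had 65.2% (42.7% to 83.6%) from 23 UMIs, and mural-like and endothelial-like cells had only 12 and 9 such UMIs. Under the 4 barcode numbers the share was 81.8%, 76.8%, 74.1% and 71.7% in OPC-like cells and 52.9%, 61.5%, 62.5% and 45.5% in diffOPC-like cells. In MOL-like cells it was 90.3%, 91.9%, 81.1% and 97.2%, so the ranges of OPC-like and MOL-like cells overlapped between barcode numbers. With each cell thinned to 1000 UMIs the OPC-like share was 86.4%, within the MOL-like interval. Microglia-like cells had 60.9%, 67.4%, 59.3% and 48.6%, all below those of OPC-like cells. These shares are of transcripts and not of sulfate groups.

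The 6-O enzyme differed as well. In diffOPC-like cells 43 of 44 6-O UMIs were Chst3 (97.7%, 88.0% to 99.9%), while in OPC-like cells 14 of 54 were (25.9%, 15% to 39.7%) and in microglia-like cells 0 of 69, which allows a share of up to 4.35% on the limit of 3 counts. Chst7 was thus the 6-O enzyme of microglia-like cells (50.7 CPM, 39.5 to 64.2) and for the most part of OPC-like cells (32.3 CPM, 23.1 to 44.0). Of the 4-O enzymes, Chst11 held 72.2% (58.4% to 83.5%) of the UMIs in ependymocyte-like cells, 49.2% in OPC-like cells and 1.57% in MOL-like cells, where Chst12 held nearly all. Chst11 was highest in OPC-like cells at 74.4 CPM, where Chst12 stood at 76.8 CPM (62.1 to 93.9). Intervals overlapped that one for Chst12 in astrocyte-like (76.6 CPM), VLMC-like (72.6 CPM) and microglia-like cells (70.6 CPM).

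**Figure D5:**
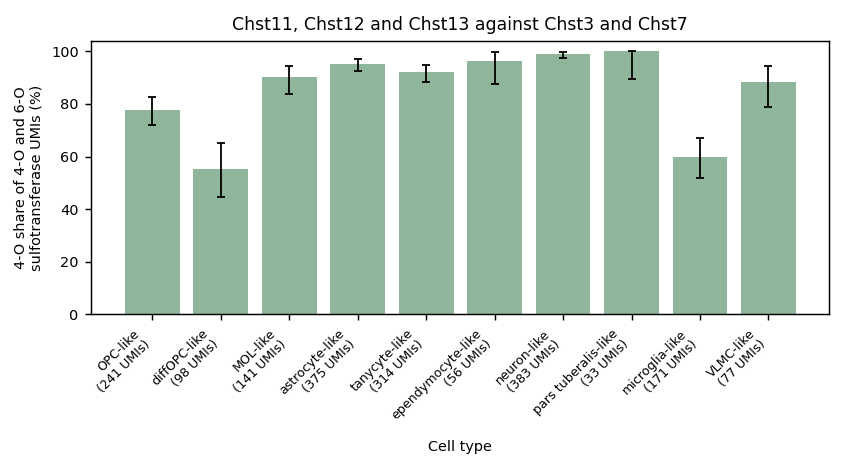
Share of 4-O sulfotransferase UMIs (Chst11, Chst12 and Chst13) among 4-O and 6-O sulfotransferase UMIs (with Chst3 and Chst7), in percent, for the cell types with at least 30 such UMIs, with exact 95% intervals. DiffOPC-like cells (55.1%) and microglia-like cells (59.6%) are the lowest bars, and neuron-like and pars tuberalis-like cells reach 99% and 100%.

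Chst15, which adds a sulfate at position 6 to units that already carry one at position 4, was at 55.8 CPM (28.8 to 97.5) in endothelial-like, 51.7 CPM (37.3 to 69.9) in VLMC-like and 34.0 CPM (24.5 to 45.9) in OPC-like cells. It overlaps Fgfr2 on the same strand, so reads may be shared. Chst2 and Chst5 act on N-acetylglucosamine rather than on chondroitin. Chst2 was at 406 CPM (371 to 443) in OPC-like and 268 CPM (239 to 300) in diffOPC-like cells, a difference that was not called (−0.58). By barcode number the OPC-like values spread from 228 to 580 CPM. Chst5 was at 57.4 CPM (44.8 to 72.4) in OPC-like and 15.7 CPM (9.3 to 24.8) in diffOPC-like cells.

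The transcripts of the chain-starting enzymes differed in share between cell types. Xylosyltransferases put the first sugar on the core protein. Xylt1 (ENSMUSG00000030657, chromosome 7, 117380979 to 117673580) was at 542 CPM (502 to 584) in OPC-like cells, 104 CPM (86.6 to 125) in diffOPC-like cells, 97.4 CPM in those like astrocytes and 1.5 CPM in those like MOLs. Under barcode numbers 1 to 4 the OPC-like values were 547, 590, 468 and 541 CPM and the diffOPC-like values 91.5, 132, 98.7 and 104 CPM. Xylt1 made up 92.0% (89.8% to 93.9%) of the xylosyltransferase UMIs in OPC-like cells and 12.3% (5.08% to 23.7%) in MOL-like cells, where Xylt2 held the rest. Xylt2 itself was at 46.9 CPM in OPC-like and 38.4 CPM in macrophage-like cells. Csgalnact1 likewise made up 89.7% of the UMIs of its pair with Csgalnact2 in diffOPC-like and 90.2% in astrocyte-like cells, and 6.38% (2.38% to 13.4%) in MOL-like cells. Csgalnact2 was highest in mural-like cells at 53.3 CPM (27.6 to 93.2), with 51.7 CPM in VLMC-like cells. In the Agrp and Npy cluster of neuron-like cells, Csgalnact1 was at 35.0 CPM (25 to 47.7), against 5.7 CPM (3.8 to 8.2) in the largest neuron-like cluster. The polymerase subunits were spread widely. VLMC-like cells had the highest level of Chpf, 122 CPM (99.1 to 148), and of Chsy1, 25.9 CPM (16 to 39.5), and Chpf2 lay between 8.9 and 28.7 CPM in all 13 types.

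Other genes of the pathway came from a list of 89, of which 75 had at least 50 UMIs and 19 of these (25.3%, against 26.5% of all genes) were highest in the lineage. Between OPC-like and diffOPC-like cells 34 were compared, with 3 higher and 11 lower, where 6.44% of all genes were higher and 12.2% lower. Between diffOPC-like and MOL-like cells 43 were compared, with 11 higher and 11 lower, against 8.34% and 14.4% of all genes. Supply of the sulfate donor had 5 of its 7 genes highest in the lineage, against the same 26.5%. Papss1, which makes the donor PAPS, was at 382, 324 and 279 CPM in OPC-like, diffOPC-like and MOL-like cells. Arsb, the lysosomal enzyme that removes 4-O sulfate from chondroitin, was highest in diffOPC-like cells at 352 CPM (318 to 388), with 163 CPM in OPC-like cells and 35.3 CPM in MOL-like cells. Hexa, another lysosomal breakdown gene, was highest in microglia-like cells at 908 CPM.

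Of the 6 measured genes for chondroitin sulfate receptors, 3 were highest in the lineage, against 26.5% of all genes. The receptor phosphatase gene Ptprs was at 125 CPM (106 to 147) in OPC-like, 109 CPM in diffOPC-like cells and 18.9 CPM (15.1 to 23.3) in MOL-like cells, while its relative Ptprd was at 74.4, 13.9 and 414 CPM (396 to 433 in the last). Cntn1, the contactin that binds PTPRZ1, was at 930 CPM in OPC-like and 197 CPM in diffOPC-like cells. Pleiotrophin (Ptn), a growth factor that binds the chondroitin sulfate of PTPRZ1, was at 3519, 320 and 1651 CPM in the 3 stages and highest in tanycyte-like cells (4248 CPM, 4196 to 4300). Midkine (Mdk) reached 539 CPM in VLMC-like cells, and Nptx2 had 25.1 CPM in pars tuberalis-like and OPC-like cells.

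No hyaluronan synthase had a UMI in MOL-like cells, but the transcript of a hyaluronan-binding protein was abundant there. Tnfaip6, whose secreted product TSG-6 binds hyaluronan, was at 1002 CPM (973 to 1031) in MOL-like and 57.4 CPM (44.8 to 72.4) in OPC-like cells, the next type. A UMI of it was found in 98.2% of MOL-like cells and in 1.98% of microglia-like cells (median depth 6150 and 3093 UMIs). The hyaluronidase genes Hyal2 and Hyal1 were highest in endothelial-like (102 CPM) and astrocyte-like cells (20.8 CPM). Of the protease inhibitors, Timp4 was at 780 CPM in astrocyte-like and 623 CPM in diffOPC-like cells, and Timp2 and Timp3 were highest in VLMC-like cells at 726 and 1964 CPM. Among other cores that can carry chondroitin or dermatan sulfate, App was at 362, 1116 and 2293 CPM in the 3 stages, Aplp2 at 480, 182 and 676 CPM (758 CPM in endothelial-like cells), and Dcn, a VLMC marker, at 21175 CPM in VLMC-like cells.

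Of the 5 genes for the shared linker, 0 were highest in the oligodendrocyte lineage, where 26.5% of all genes had their highest level. B3gat3 was highest in neuron-like cells at 69.9 CPM, and B4galt7 and B3galt6 in pars tuberalis-like cells at 30.9 and 40.6 CPM, with intervals that overlapped those of neuron-like cells (27.4 and 34.7 CPM). The dermatan sulfate genes Dse, Dsel and Chst14 were highest in macrophage-like (133 CPM), ependymocyte-like (33.0 CPM) and VLMC-like cells (18.5 CPM). Of 15 measured heparan sulfate genes, 4 were highest in the lineage, a share near that of all genes. Extl2 and the sulfatase Sulf2 were highest in OPC-like cells (118 and 318 CPM), and the sulfotransferase Hs3st1 in MOL-like cells at 181 CPM (169 to 193), with 11.3 CPM in OPC-like and 73.1 CPM in diffOPC-like cells.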

How the data were processed

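Cell Ranger 2.0 and mm10 (GRCm38) are named in the submitters' processing notes. The deposited values are raw UMI counts for each gene in each cell, made by the authors and joined over all libraries in 1 matrix. The annotation release and the rule for calling cells are not given in the sources used here. Identifiers of 27645 of 27998 genes were matched to GENCODE vM21. The comparison of refed with fasted cells was not possible, since barcode numbers are not tied to conditions.

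No cell was removed for depth, and 3 cells in which haemoglobin genes gave at least 10% of the UMIs were left out of the types. After removal of the listed genes and 89 related genes from the variable genes (those on the marker lists excepted), cells were clustered with scanpy 1.11.5 (2000 variable genes, 30 principal components, 15 neighbours, Leiden resolution 1, seed 0). A cluster took the name of its best of 13 marker lists at a score of at least 0.3, at least 1.5 times the next, with at least 3 markers at least 4 times above the median cluster. Summed UMIs gave CPM. Stages were compared with a pseudocount of 10 CPM, a minimum of 50 UMIs and a call at 1 log2 unit, without a test because there was 1 sample. Scrublet, run in each barcode number, called 50 doublets (0.836%), which were kept in the values reported. The steps were tested on simulated data.

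The genes, lists and thresholds were chosen with earlier results of these data known. Named genes are all listed genes, and the 3 most abundant of each group of related genes, of which 1 is not reported here. Outside this rule, the clusters singled out within a type, their leading genes and the split of Acan were chosen after their values had been seen. Alternatives were K-means, Leiden resolutions of 0.5 and 2, listed genes kept, cells thinned to 1000 UMIs, doublets left out, a ceiling of 20% on mitochondrial UMIs, leaving out each barcode number, pseudocounts of 1 and 100 CPM, minimums of 20 and 0 UMIs, edgeR 4.0.16 TMM scaling, and the lineage clustered alone.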

Additional observations from a re-analysis of the deposited data

How the results depend on the processing

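No paired analysis was possible because the labels give the matrix columns no replicate number and no result comes from a test. Stages were set side by side within each barcode number as values. With each cell thinned to 1000 UMIs, the listed genes with more than 50% of their UMIs in the lineage numbered 6 in place of 10, those higher in diffOPC-like than in OPC-like cells 1 in place of 5 and lower 5 in place of 9, and those higher in MOL-like than in diffOPC-like cells 1 in place of 2 and lower 4 in place of 10. Fewer genes reached 50 UMIs after thinning. The 4-O share was then 86.4% in OPC-like and 100% in neuron-like cells. A pseudocount of 100 CPM gave 3 higher and 5 lower in diffOPC-like cells and 1 higher and 7 lower in MOL-like cells. Chst3 and Csgalnact1 were among the genes no longer called there, since this pseudocount exceeds their levels. Leaving out each barcode number gave 4 to 5 higher and 8 to 10 lower in diffOPC-like cells, 2 higher and 8 to 9 lower in MOL-like cells, 16 to 17 genes highest in the lineage and 9 to 11 with more than 50% of UMIs there. Of 390 values of the 26 called differences under the alternatives, 390 kept their sign and 367 stayed past 1 log2 unit, and 16 of the differences were called under each alternative in which they could be compared. K-means did not part OPC-like from diffOPC-like cells and gave no stage values. The hyaluronan synthases, Acan, Tnc, Chsy3 and Chst13 had fewer than 50 UMIs each, so any values given for them by cell type rest on few UMIs. The same holds for levels in the 75 mural-like and 84 endothelial-like cells.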
